A study of Mus musculus with 12 samples.

Results

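Small nucleolar RNAs (snoRNAs) were followed across sorbitol time and sorted fraction in mouse embryonic stem cells. Members were taken by a rule: genes that the GENCODE M21 annotation types as snoRNA, with at least 10 counts in at least 2 of the 12 libraries. The rule kept 161 of 1507 annotated snoRNA genes, and 587 of the 1507 had any count. The remaining 1346 genes were below it. Near the threshold, 9 members had a second-highest count of exactly 10, and 7 genes just outside it had a second-highest count of 9. The cells were E14 mESC, a mouse embryonic stem cell line, and all carried the genotype 2C::3xtbGFP, a reporter in which turboGFP (tbGFP) marks cells with the transcription program of the 2-cell embryo. They were expanded with 3 µM CHIR99021 and 1 µM PD0325901, then plated without these kinase inhibitors, and collected after 48 h of culture with sorbitol for 0, 6 or 24 h. At each time 50000 cells were sorted as tbGFP-positive or tbGFP-negative, which gave 6 groups of 2 libraries. All libraries were made from 120 ng of total RNA with a stranded total RNA kit. The labels give the same culture time for every sample and do not say whether the hours in sorbitol lie within it. Where they do not, sorbitol and time in culture cannot be told apart. Cells were sorted after the treatment, and cells may have entered or left a fraction during it.

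SnoRNAs are short nuclear RNAs that guide chemical modification of other RNAs, above all ribosomal RNA. Box C/D snoRNAs guide 2'-O-methylation through fibrillarin, and box H/ACA snoRNAs guide pseudouridylation through dyskerin. A few, such as U3 and U8 (Snord118), serve the cleavage of the ribosomal precursor instead. Most vertebrate snoRNAs lie in introns of a host gene, are cut from the spliced intron after debranching and trimmed by exonucleases, so the level of a snoRNA and that of its spliced host are not bound to move together. A few have their own promoter. Several tandem clusters lie in imprinted regions, among them the Snord116 cluster within the long noncoding transcript Snhg14, on mouse chromosome 7.

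The sequences of the members on which the results turn are shown as the annotation gives them, 5′ to 3′ on the transcript strand (GENCODE M21, GRCm38, the build of mm10). Capitals mark the C box letters TGATGA within the first 20 bases and the D box letters CTGA within the last 20 bases of C/D members, or the letters ACA exactly 3 bases before the end of H/ACA members. Gm26270 (chr7:59716059-59716152, minus strand) carried more counts than any other copy of the Snord116-type cluster, and 30 of its 70 copies have exactly its sequence. Gm24711 (chr7:59721125-59721218, minus strand) shows a single difference from it, T11C counted from the 5′ end, which falls in the TGATGA that starts at position 8.
Gm26270: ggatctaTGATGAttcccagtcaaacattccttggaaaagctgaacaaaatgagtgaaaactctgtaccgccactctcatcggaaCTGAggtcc
Gm24711: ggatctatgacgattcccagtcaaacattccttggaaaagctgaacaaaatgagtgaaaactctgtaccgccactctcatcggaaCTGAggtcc
Shown next are 3 snoRNA genes of related sequence, chosen after their values were seen because they differed in where they were high: Snora17 (chr2:26639190-26639321, minus strand, in no annotated gene span), Gm23949 (chr9:99750391-99750517, minus strand) and Gm26184 (chr8:14273181-14273311, minus strand). Gm23949 was 81.1% and Gm26184 73.9% identical to Snora17. At 70% identity or more to Snora17 the annotation holds 516 snoRNA genes, 8 of them members, so sequence does not set these 3 apart. None of them holds ACA at exactly 3 bases before its end.
Snora17: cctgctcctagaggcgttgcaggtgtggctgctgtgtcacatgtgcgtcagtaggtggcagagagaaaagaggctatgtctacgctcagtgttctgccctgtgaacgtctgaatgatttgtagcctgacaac
Gm23949: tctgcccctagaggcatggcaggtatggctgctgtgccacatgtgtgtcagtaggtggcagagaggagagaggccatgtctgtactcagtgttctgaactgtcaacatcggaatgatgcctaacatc
Gm26184: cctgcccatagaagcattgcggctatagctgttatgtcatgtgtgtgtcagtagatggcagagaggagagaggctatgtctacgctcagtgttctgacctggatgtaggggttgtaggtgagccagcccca
Members that rose after 6 h are Snord104 (chr11:106500993-106501062, plus strand), Snora41 in an intron of Eef1b2 (chr1:63179004-63179135, plus strand) and Snora31 in an intron of Tpt1 (chr14:75847905-75848034, plus strand).
Snord104: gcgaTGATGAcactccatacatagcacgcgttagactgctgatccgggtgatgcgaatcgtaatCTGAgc
Snora41: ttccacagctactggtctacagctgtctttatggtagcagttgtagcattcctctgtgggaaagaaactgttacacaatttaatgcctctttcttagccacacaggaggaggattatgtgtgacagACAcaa
Snora31: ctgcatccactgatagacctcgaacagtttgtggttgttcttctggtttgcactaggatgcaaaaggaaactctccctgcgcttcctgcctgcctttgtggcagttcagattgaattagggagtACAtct
Snord118 (chr11:69073427-69073561, plus strand) is U8, a snoRNA of ribosomal RNA processing. It ends with a D box and does not hold the exact letters TGATGA within its first 20 bases.
Snord118: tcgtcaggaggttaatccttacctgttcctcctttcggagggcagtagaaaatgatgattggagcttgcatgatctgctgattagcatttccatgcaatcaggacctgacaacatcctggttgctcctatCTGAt

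The members were 64 to 246 bases long. Of the 161, 105 bear provisional Gm symbols, 38 Snord and 14 Snora symbols. Both C and D box letters were found in 53 members (32.9%, against 20.5% of all 1507 annotated snoRNA genes), ACA in 50 (31.1% against 18%) and neither in 58. These are exact letter matches on the transcript strand, not sites shown to work. A same-strand host, meaning an annotated gene on the same strand whose span holds the whole snoRNA, was found for 132 members in 94 host genes, with 125 in introns and 7 overlapping a host exon. Of these 132, 60 share a host with another member and are not independent. The hosts were Snhg14 for 12 members, ribosomal protein genes for 24, other protein-coding genes for 84 and other noncoding genes for 12. Of the 29 members without one, 14 lay inside a gene on the opposite strand and 15 in no gene span.

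Counts were low. The median member had a mean count of 16.2 against 27.0 for all 19384 genes tested, and 92 members had a mean under 20. The libraries held 2306870 to 7900178 counts in all. The tbGFP-positive 6 h libraries detected the fewest genes, 17545 and 17445 against 18600 to 26069 in the others, and the fewest members, 116 and 112 against 122 to 158. Counts of called members are given below with and without them. The strand setting of the counting, and how reads that match several genes were treated, are not given in the sources used here. Reads of a snoRNA, of an overlapping gene on the other strand and of near-identical copies may therefore be mixed, and intronic members may hold reads of unspliced host RNA. As a check of the sort, all 8 listed markers of 2-cell-like cells were higher in tbGFP-positive cells at 0, 6 and 24 h. Their summed level in the tbGFP-negative fraction went from 14.2 to 30.0 CPM (counts scaled to the TMM-adjusted size of each library) before sorbitol to 45.8 to 58.8 CPM after 6 h and 674 to 722 CPM after 24 h, against 28500 to 46700 CPM in tbGFP-positive libraries. In that fraction 3 of the 8 were called higher at 6 h and 7 of 8 at 24 h, and the part of such cells in the results at 24 h was not tested. The sums of the marker lists for fibroblasts, primitive endoderm, trophectoderm, and mesoderm and ectoderm reached at most 27.5 CPM in any library, against 6280 to 9560 CPM for the embryonic stem cell list. The fibroblast sum moved with time in the tbGFP-negative fraction, from 3.4 to 4.48 CPM before sorbitol to 14.9 to 16.6 CPM after 6 h, with 0 of its 4 tested genes called in any comparison. Its part in the results was not tested.

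All snoRNA genes together took a small share of the counts matched to genes, and that share was highest in the tbGFP-negative cells at 6 h. In these it was 0.229% and 0.244% (mean 0.236% ± 0.0106, SD, n = 2), above 0.145% and 0.163% before sorbitol, and 0.151% and 0.155% after 24 h. In tbGFP-positive cells it was 0.115% and 0.132% before sorbitol, 0.198% and 0.137% after 6 h, then 0.145% and 0.127% after 24 h. The negative 6 h libraries lay above all 10 others, and the positive 6 h libraries lay far apart from each other. The 95% Wilson intervals of single libraries, which cover counting error only, were narrow, as from 0.140% to 0.150% in the smallest library. Without the 12 Snhg14 members the negative 6 h libraries still had 0.211% and 0.219%, against at most 0.185% elsewhere. Members held 94.9% to 97.1% of all snoRNA counts.

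The member with the most reads was Gm26448, in an intron of Rpsa, which encodes a ribosomal protein of the small subunit, with a mean of 193 CPM over the 12 libraries. Gm24339 followed with 168 CPM. It shares its host Cep295, a centrosomal protein gene, with the small Cajal body RNA Scarna9 at 54.8 CPM, whose class guides modification of spliceosomal RNA. Next came Snord17 in Snx5 with 122 CPM, Snora17 with 68.9 CPM, Gm24336 in Cwf19l1 with 61.8 CPM and Snora78 in Snhg9 with 54.9 CPM. Gm26270 in Snhg14 had 43.8 CPM, Gm23201 in Zfas1 41.2 CPM and Gm25835 in Eif4a1 38.4 CPM. These are counts not scaled by length, so the order says which members gave most reads, not which RNA was most abundant. Gm24339 and Scarna9 showed no call in any comparison. Gm24339 had 89.2 and 159 CPM in tbGFP-negative and 166 and 315 CPM in tbGFP-positive cells at 0 h, a log2 difference of 0.94 ± 0.35 (SE, adjusted p = 0.156).

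Calls were made at an adjusted p under 0.05 with edgeR's quasi-likelihood test over all 19384 genes, in which the 12 libraries share one estimate of spread. Whether the libraries of a group come from separate cultures is not in the labels, so a p-value here reflects how far these libraries spread, and that spread may be technical. After 6 h in tbGFP-negative cells 13 members rose and 0 fell, a share of 8.07% higher, against 3.22% of all tested genes higher and 1.21% lower. The 13 were 7 members in Snhg14 and 6 others, the latter 4.03% of the 149 members outside Snhg14. The median log2 fold change of the 161 members was 0.66 against 0.05 for all tested genes, and 0.51 for the 149 members outside Snhg14. Both 6 h libraries lay above both 0 h libraries in 79 members and below them in 27, that is 49.1% and 16.8%, against 31.9% and 24.6% of all tested genes. Among the 69 members with a mean count of at least 20 the median was 0.77, and among the 92 below it 0.19. The count of calls depended on single libraries: it was 5 without replicate 1 and 2 without replicate 2 of the tbGFP-negative 0 h group, 5 and 4 without the 6 h replicates 1 and 2, and 30 and 29 without replicates 1 and 2 of the tbGFP-positive 6 h group, which are not among the libraries compared. Without both tbGFP-positive 6 h libraries 29 of 150 members tested rose and 0 fell, against 8.21% and 5.55% of all genes tested in that fit. For fits without a single library, here and below, no share of all tested genes is given. Those counts show how far the calls depend on single libraries and say nothing particular to snoRNAs.

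In tbGFP-positive cells 12 members rose and 5 fell after 6 h, against 2.14% of all tested genes higher and 3.76% lower. The median member had a log2 fold change of 0.49, and 0.24 outside Snhg14, against -0.05 for all tested genes. Groups did not overlap in 44 members that were higher and 32 that were lower, 27.3% and 19.9%, against 15.3% and 22.9% of all tested genes. The total of 17 called members became 9 and 6 without replicates 1 and 2 of the tbGFP-positive 0 h group, 38 and 41 without its 6 h replicates 1 and 2, and 11 without replicate 2 of the tbGFP-negative 0 h group or either replicate of the tbGFP-positive 24 h group.

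At 24 h fewer members differed from 0 h. In tbGFP-negative cells 4 members were higher, all in Snhg14, and 0 lower, against 2.7% and 1.29% of all tested genes, and the median of all members was 0.19 against 0.23. In tbGFP-positive cells 1 member, Gm26270, was higher and 0 lower, against 0.304% and 0.248%. The 4 became 2, 1 and 2 without replicate 1 or 2 of the tbGFP-negative 0 h group or replicate 1 of its 24 h group. Without replicate 1 or 2 of the tbGFP-positive 6 h group the counts became 9 in each fraction, and without replicate 1 or 2 of the tbGFP-negative 24 h group 2 in tbGFP-positive cells.

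Between the sorted fractions, 6 members were called higher in the tbGFP-positive fraction at 0 h and 0 lower, against 6.66% and 0.449% of all tested genes. At 6 h 5 were higher and 16 lower, against 6.92% and 5.22%, and at 24 h 3 were higher and 0 lower, against 5.35% and 0.113%. At 0 h and 24 h the share of members called higher, 3.73% and 1.86%, lay below that of all genes. At 6 h the share called lower, 9.94%, lay above it. The median member difference at 6 h was -0.44 against -0.07 for all tested genes. The test of whether the gap between fractions at 6 h differed from that at 0 h called 1 member, Snora17, against 0.17% of all tested genes. That count became 16 and 17 without replicates 1 and 2 of the tbGFP-positive 6 h group, 2 without replicate 2 of its 24 h group, and 0 without any single library named below for Snora17. The same test at 24 h called 0 members against 0.97% of all tested genes, and DESeq2 also called 0 members. The count at 0 h became 3 without replicate 2 of the tbGFP-negative 0 h group, and 11 and 12 without replicates 1 and 2 of the tbGFP-positive 6 h group. The count at 6 h became 9 and 6 without replicates 1 and 2 of the tbGFP-negative 6 h group, 37 without replicate 1 of the tbGFP-positive 6 h group, and 13 without replicate 2 of the tbGFP-negative or either replicate of the tbGFP-positive 24 h group.

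**Figure D1:**
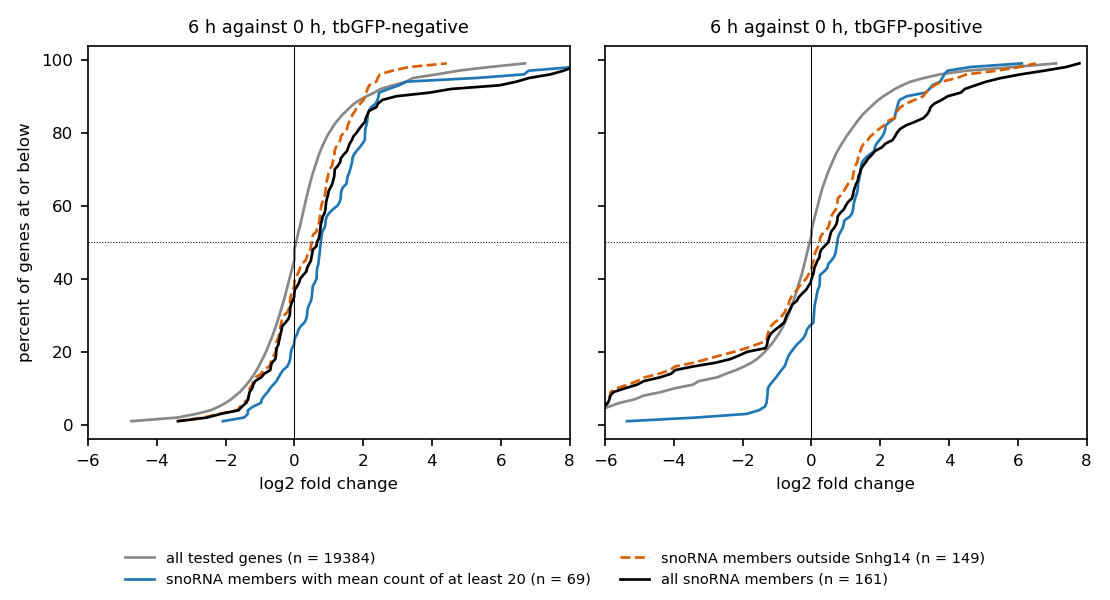
Cumulative share of genes (y axis, percent) at or below a log2 fold change (x axis) for 6 h against 0 h in tbGFP-negative (left) and tbGFP-positive cells (right). Black is all 161 snoRNA members, blue the 69 with a mean count of at least 20, dashed orange the 149 outside Snhg14 and grey all 19384 tested genes; in tbGFP-negative cells the member line crosses 50% at 0.66 and the grey line at 0.05.

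The largest changes were in the Snord116-type snoRNAs of Snhg14. Loss of this paternally expressed cluster is linked to Prader-Willi syndrome in people, and these snoRNAs have no established ribosomal RNA target. The annotation holds 70 copies of at least 95.7% identity to Gm26270 over 231388 bases, between 59673461 and 59904848 on chromosome 7. Of these, 11 were members, 7 of them with exactly the same sequence. The 30 identical copies had total counts over the 12 libraries of 0 to 3062, with a median of 9.5, so how counts were divided among copies that no read can separate is not known, and the copies are best read as a sum. Summed over all copies, the tbGFP-negative libraries had 5 and 15 counts before sorbitol, 1270 and 1328 after 6 h, then 629 and 400 after 24 h. The sums in tbGFP-positive libraries were 46 and 49 before sorbitol, 519 and 1401 after 6 h, then 444 and 594 after 24 h. Every 6 h library lay above every 24 h library, and every 24 h library above every 0 h library, on the CPM scale.

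As CPM the sum rose from 1.79 ± 0.115 (SD, n = 2) at 0 h to 245 ± 44.6 at 6 h in tbGFP-negative cells, a 137-fold difference, and was 57.9 ± 10.1 at 24 h, still 32.4-fold above 0 h. In tbGFP-positive cells it was 10.5 ± 2.33, 178 ± 29.8 and 83.1 ± 6.12 CPM, that is 17-fold and 7.95-fold above 0 h. At 0 h both positive libraries, with 8.81 and 12.1 CPM, lay above both negative ones, with 1.87 and 1.70 CPM. With the 11 members alone the negative 6 h sum was 184-fold above 0 h, and without Gm26270 191-fold.

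Gm26270, the copy with the most counts, had 3 and 8 counts before sorbitol in tbGFP-negative cells, 520 and 519 after 6 h, then 248 and 199 after 24 h. In tbGFP-positive cells it had 19 and 11, 287 and 819, and 169 and 260. No 0 h library overlapped any later one. Its log2 fold change at 6 h was 6.62 ± 0.38 (SE, adjusted p = 3.18e-07) in tbGFP-negative and 4.97 ± 0.33 (adjusted p = 4.44e-06) in tbGFP-positive cells. At 24 h it was 4.69 ± 0.38 (adjusted p = 2.8e-06) and 3.40 ± 0.32 (adjusted p = 0.000178). These 4 calls held in all alternatives run. At 0 h it was higher in tbGFP-positive cells by a log2 value of 1.71 ± 0.44 (adjusted p = 0.0258), a call lost in the fit of only the libraries compared (adjusted p = 0.487), without replicate 1 or 2 of the tbGFP-negative 0 h group (0.0746 and 0.406) or without replicate 1 of the tbGFP-positive 0 h group (0.137), and with library totals alone or upper-quartile scaling (0.108 and 0.0917). At 6 h the fractions differed by 0.06 ± 0.26 (adjusted p = 0.923).

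The other Snhg14 members called in tbGFP-negative cells at 6 h were Snord116l16, Gm24264, Gm23767, Gm22417, Gm24711 and Snord116l11. Taking 3 counts as the most that a group without counts allows, the first was at least 282-fold higher, with 388 and 407 counts after 0 and 0. Gm24264 had 80 and 61 counts in these 6 h libraries and at most 4 in any other, so it passed the filter on low counts only through the group where it was high and supports nothing. Each of the 6 lost its call without replicate 2 of the tbGFP-negative 0 h group, with adjusted p of 0.0979, 0.204, 0.171, 0.292, 0.258 and 0.113 in the order named. Without replicate 1 of that group the calls of Gm24264 (0.0924), Gm23767 (0.068), Gm22417 (0.115) and Gm24711 (0.0892) were lost too. Without replicate 1 or 2 of the tbGFP-negative 6 h group those of Gm22417 (0.174 and 0.0508) and Gm24711 (0.0705 and 0.0934) were lost, and without replicate 2 that of Gm23767 (0.0802). Snord116l16 also lost its call without replicate 1 or 2 of the tbGFP-positive 6 h group (0.0554 and 0.0541) or without both (0.0564). At 24 h it was called higher in negative cells, a call lost without both tbGFP-positive 6 h libraries (0.21) or either (0.207 and 0.204), without replicate 1 or 2 of the tbGFP-negative 0 h group (0.126 and 0.38) or of the tbGFP-positive 0 h group (0.0668 and 0.0672), and without replicate 1 of the tbGFP-negative 24 h group (0.279). Single copies were uneven between libraries: Snord116l16 had 182 and 9 counts in tbGFP-negative cells at 24 h, and 22 and 6 in tbGFP-positive cells at 6 h. It was called lower in tbGFP-positive cells at 6 h (log2 -4.48 ± 1.05, adjusted p = 0.0149), and Gm26270 was not called. The call of Snord116l16 was lost without replicate 2 of the tbGFP-negative 6 h group (adjusted p = 0.0704) and without replicate 1 or 2 of the tbGFP-positive 6 h group (0.0953 and 0.187). The twelfth Snhg14 member, Gm25870, is a different snoRNA of 79 bases. It had no counts at 0 h, 10 and 7 at 6 h in tbGFP-negative cells and 0 and 30 in tbGFP-positive cells, and no call.

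The host Snhg14, on the scale of its own transcripts without the snoRNA genes, also rose at 6 h. It stood at 30.6 and 37.6 CPM before sorbitol in tbGFP-negative cells, 180 and 184 after 6 h, then 46.5 and 57.3 after 24 h. In tbGFP-positive cells the values were 39.1 and 60.5, 160 and 204, then 71.9 and 51.8 CPM. The 6 h libraries lay above all others in both fractions. The rise at 6 h was 2.41 ± 0.26 (log2, adjusted p = 0.000103) in negative and 1.87 ± 0.26 (adjusted p = 0.00148) in positive cells. At 24 h the host was higher by 0.59 ± 0.26 (adjusted p = 0.308) and 0.32 ± 0.25 (adjusted p = 0.796), neither of which passed the test. The test compared each gene with itself, and the difference between snoRNA and host was not tested. Snrpn, whose promoter region is the usual start of this transcript, had 0 counts in all but 2 tbGFP-positive libraries, with 4 and 1, and Snurf had none. Reads shared by overlapping transcripts may be missing from these counts, since the treatment of such reads is not given. The counts therefore do not show that Snrpn or Snurf is silent. Ube3a, the neighbouring gene to which the Snhg14 transcript runs antisense, was called in no comparison.

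**Figure D2:**
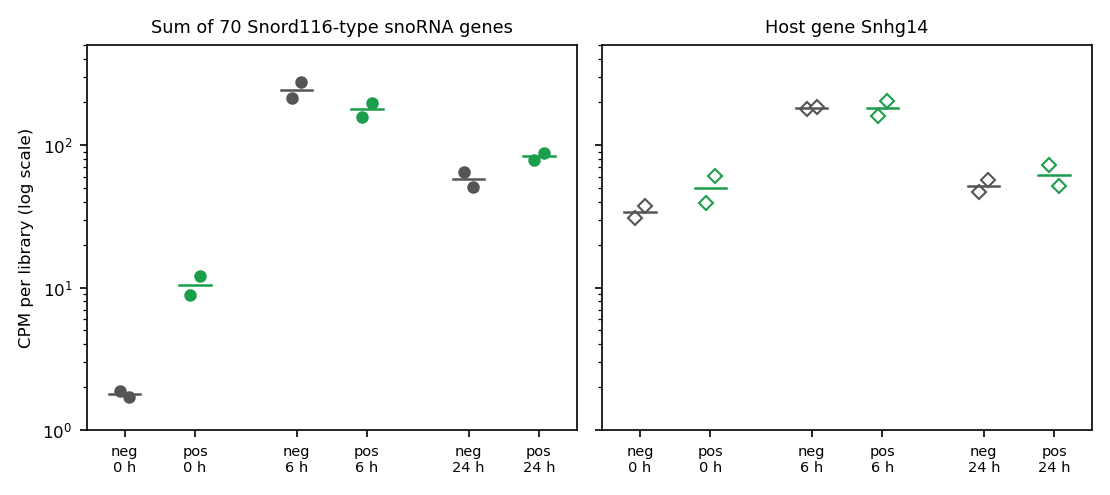
CPM per library on a log axis for the sum of 70 Snord116-type snoRNA genes (left) and their host Snhg14 (right), by sorted fraction (grey negative, green positive) and hours of sorbitol. Points are single libraries and bars the mean of 2; the negative 0 h sums sit below 2 CPM and the 6 h sums above 150 CPM, while Snhg14 goes from 30.6 and 37.6 to 180 and 184 CPM.

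Snora17, named as an H/ACA snoRNA, rose at 6 h in tbGFP-negative cells, and the fractions differed in this change. It had 41.1 and 40.9 CPM before sorbitol in negative cells, 155 and 159 after 6 h, then 30.8 and 31.1 after 24 h. In positive cells it had 69.7 and 63.0, 67.3 and 82.1, and 44.9 and 41.4 CPM. The negative 6 h libraries lay above all others, and the positive 0 h and 6 h libraries overlapped. The log2 fold change at 6 h was 1.94 ± 0.21 (adjusted p = 0.000103) in negative and 0.17 ± 0.20 (adjusted p = 0.645) in positive cells, and the gap between fractions changed by -1.77 ± 0.29 (adjusted p = 0.0226). The rise in negative cells held in all alternatives run. The test of the gap was lost without replicates 1 and 2 of the tbGFP-negative 0 h group (adjusted p = 0.147 and 0.151), of the tbGFP-negative 6 h group (0.112 and 0.104), or of the tbGFP-positive 0 h group (0.0622 and 0.0505), or without replicate 1 of the tbGFP-positive 24 h group (0.0511), at log2 values of -1.74 to -1.89, and with library totals alone in place of TMM (-1.35, adjusted p = 0.116). At 6 h Snora17 was lower in positive than in negative cells by 1.07 ± 0.20 on the log2 scale (adjusted p = 0.0026). That call was lost in the fit of only the libraries compared (adjusted p = 0.0929), and that fit also lost the test of the gap. The annotation holds 516 other snoRNA genes of at least 70% identity to Snora17, 8 of them members, and no non-member among these had more than 69 counts in all.

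Snord104, a C/D snoRNA in no annotated gene span, rose in both fractions. It had 16.1 and 11.4 CPM before sorbitol and 43.9 and 40.1 after 6 h in negative cells, and 14.0 and 11.4 and then 49.2 and 41.4 in positive cells. At 24 h it had 21.3 and 22.3, and 33.0 and 23.3 CPM, between the other times. The log2 fold changes at 6 h were 1.64 ± 0.33 (adjusted p = 0.00909) and 1.83 ± 0.33 (adjusted p = 0.0065). The first was lost without any one of the 4 libraries compared (adjusted p = 0.0516 and 0.23 without the 0 h replicates 1 and 2, 0.126 and 0.0872 without the 6 h ones), the second without replicate 2 of the tbGFP-positive 0 h group (0.0573). The call in positive cells was also lost in the fit of only the libraries compared (adjusted p = 0.301). Snord104 was chosen for naming after its values were seen, as were Snora31 and Gm23639.

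The processing snoRNA U8 did not pass the test. Snord118 had 6.35 and 12.8 CPM before sorbitol in negative cells, 34.2 and 22.7 after 6 h, then 5.48 and 5.2 after 24 h, with a log2 difference at 6 h of 1.53 ± 0.66 (adjusted p = 0.243). Both 6 h libraries lay above both 0 h libraries, and it was called in negative cells without replicate 1 or 2 of the tbGFP-positive 6 h group (adjusted p = 0.0149 and 0.0126). In bulk samples, fewer cells with a snoRNA and less of it per cell cannot be told apart.

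The intronic members Snora41, Snora31, Gm24837 and Gm23639 were called higher at 6 h, and their hosts did not pass the test. Host values are sums over the host's transcripts, and reads shared by overlapping transcripts may be missing from them, since the treatment of such reads is not given. A host that did not pass the test, here and below, is therefore not shown to be unchanged. Snora41, an H/ACA snoRNA, had 10.1 and 11.4 CPM before sorbitol and 76.0 and 41.4 after 6 h in negative cells, and 4.60 and 6.42 and then 51.6 and 16.0 in positive cells. The 6 h libraries were all above the 0 h ones, with a wide gap between replicates. Its log2 fold changes were 2.44 ± 0.53 (adjusted p = 0.0151) and 2.60 ± 0.56 (adjusted p = 0.0161). Those of its host Eef1b2, which encodes a translation elongation factor, were 0.58 ± 0.41 (adjusted p = 0.535) and 0.00 ± 0.41 (adjusted p = 1). The Snora41 calls were lost in negative cells without replicate 1 or 2 at 0 h or at 6 h, and in positive cells without replicate 1 or 2 at 0 h. In positive cells the call was also lost in the fit of only the libraries compared (adjusted p = 0.355).

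Snora31, also H/ACA, had 8.21 and 11.6 CPM before sorbitol and 45.5 and 47.6 after 6 h in negative cells. Its host Tpt1, which encodes a translationally controlled protein, had 8.96 and 4.66 and then 4.53 and 2.08 CPM. Snora31 rose by 2.2 ± 0.43 on the log2 scale (adjusted p = 0.00769), and Tpt1 stood at -1.0 ± 0.71 (adjusted p = 0.534). The Snora31 call was lost without replicate 1 or 2 at 0 h (adjusted p = 0.119 and 0.0982) or at 6 h (0.0747 and 0.0814). In positive cells Snora31 had 14.2 and 26.4 CPM at 0 h and 43.2 and 26.1 at 6 h, which overlap. Gm24837 in Ubap2 rose by 2.96 ± 0.66 (adjusted p = 0.017) and Gm23639 in Epb41l4aos by 2.06 ± 0.48 (adjusted p = 0.0219) in negative cells. With library totals alone the call of Gm23639 was lost. The hosts stood at 1.98 ± 0.82 (adjusted p = 0.222) and -0.98 ± 1.04 (adjusted p = 0.72). Their calls were lost without replicate 2 of the 0 h group (adjusted p = 0.304 and 0.311) and without replicate 1 (0.1 and 0.314) or 2 (0.161 and 0.1) of the 6 h group, and that of Gm23639 also without replicate 1 of the 0 h group (0.126).

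Rpl13a, a ribosomal protein gene, carries 3 members, the C/D snoRNAs Snord32a, Snord34 and Snord35a, which guide methylation of ribosomal RNA. In tbGFP-positive cells Snord34 had 3 and 6 counts before sorbitol and 54 and 41 after 6 h, and Snord32a had 17 and 3 and then 52 and 55. Snord35a had 11 and 10 and then 63 and 54. Neither Snord34 nor Snord35a overlapped between these times on the CPM scale, nor did Snord32a. The log2 fold changes were 3.42 ± 0.85 (adjusted p = 0.0311), 2.48 ± 0.66 (adjusted p = 0.0398) and 2.52 ± 0.78 (adjusted p = 0.0688), while the host stood at 0.62 ± 0.36 (adjusted p = 0.304). In tbGFP-negative cells Snord34 had 12 and 20 and then 93 and 62 counts, and Snord32a 12 and 36 and then 88 and 73, with log2 differences of 2.13 ± 0.77 (adjusted p = 0.149) and 1.81 ± 0.62 (adjusted p = 0.13). The host there stood at -0.56 ± 0.36 (adjusted p = 0.469). In positive cells the calls of Snord34 and Snord32a were lost in the fit of only the libraries compared and with a replicate block. Their adjusted p reached 0.452 and 0.524. The call of Snord34 in positive cells was lost without replicate 1 or 2 of the tbGFP-positive 0 h group (0.147 and 0.0847), of the tbGFP-negative 6 h group (0.0647 and 0.062) or of the tbGFP-positive 24 h group (0.0595 and 0.0607), and without replicate 2 of the tbGFP-negative 0 h group (0.0501). That of Snord32a was lost without any of 9 single libraries, with adjusted p of 0.0654 to 0.174, and held without replicate 1 of the tbGFP-positive 0 h group or either 6 h replicate of that fraction.

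**Figure D3:**
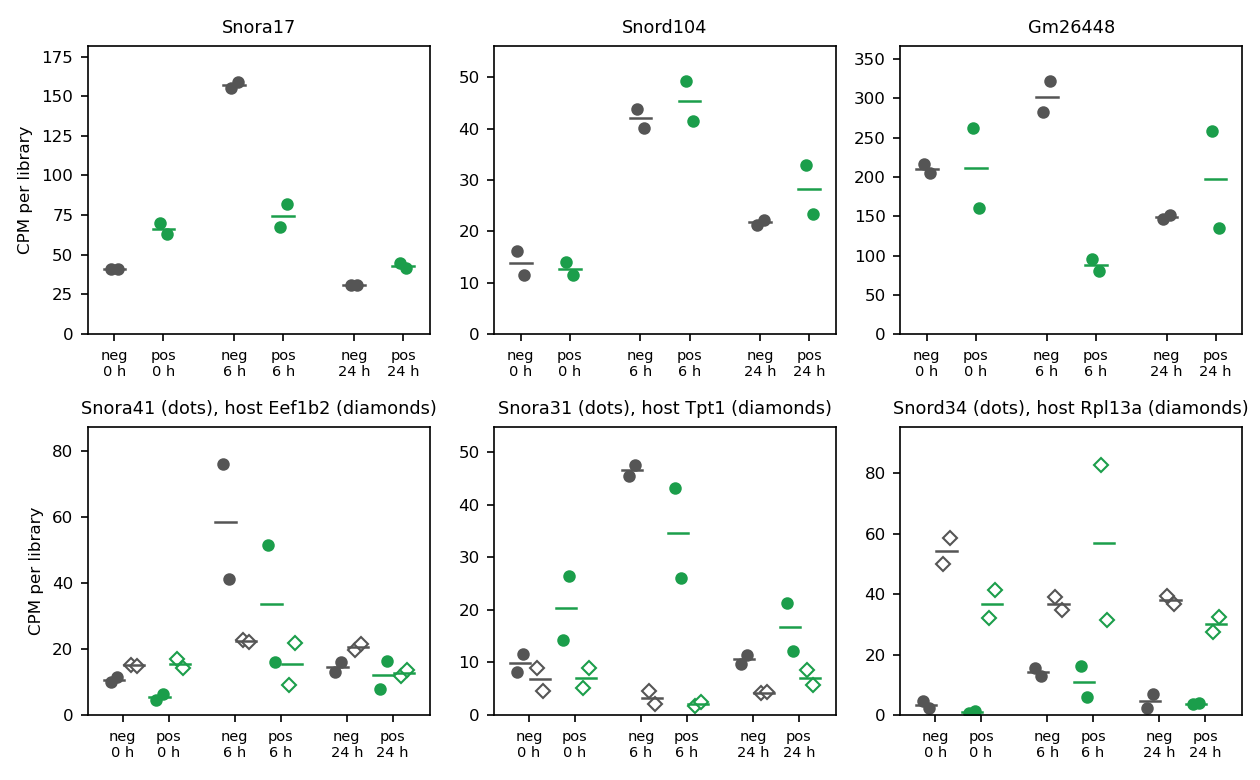
CPM per library for 6 snoRNA genes (dots) and, in the lower row, their host genes (open diamonds), with bars at the mean of 2 libraries, by sorted fraction (grey negative, green positive) and hours of sorbitol. Snora17 reaches 155 and 159 CPM in negative cells at 6 h and 67.3 and 82.1 in positive cells, and Gm26448 is lowest in positive cells at 6 h with 95.1 and 80.6 CPM.

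Of the 132 members with a host, 124, in 88 hosts, had a host that passed the filter on low counts. Across these, the fitted changes of member and host were only loosely correlated outside Snhg14. Host sums may lack reads shared by overlapping transcripts, so a weak correlation does not show that snoRNA and host levels were unrelated. For 6 h against 0 h in negative cells Pearson's r was 0.65 and Spearman's rho 0.44, and 0.31 and 0.24 over the 112 pairs outside Snhg14. In positive cells r was 0.37, and 0.26 outside Snhg14. These are correlations across genes that share libraries and, in part, hosts, so they describe the data and carry no p. Of the 88 hosts, 11 were called higher in negative cells and 0 lower, against 3.22% and 1.21% of all tested genes. Of the 11 called members with a tested host, 7 had a called host, all of them Snhg14. In positive cells 6 of 16 called members had a called host. Outside Snhg14 there were 2. Gm23201 rose by 2.15 ± 0.49 (adjusted p = 0.0213) with Zfas1 at 2.33 ± 0.36 (adjusted p = 0.00281), and Gm22748 by 1.44 ± 0.39 (adjusted p = 0.0447) with Odc1 at 0.84 ± 0.23 (adjusted p = 0.0441). Gm23201 overlaps an exon of Zfas1, so the same reads may count for both. In the fit of only the libraries compared Gm23201 was not called (adjusted p = 0.38). Its call was lost without replicate 1 or 2 at 0 h (adjusted p = 0.142 and 0.0724) and without replicate 1 at 6 h (log2 0.86, adjusted p = 0.076). The call of Gm22748 was lost without any single library but replicate 2 of the tbGFP-positive 6 h group, with adjusted p of 0.0664 to 0.227.

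**Figure D4:**
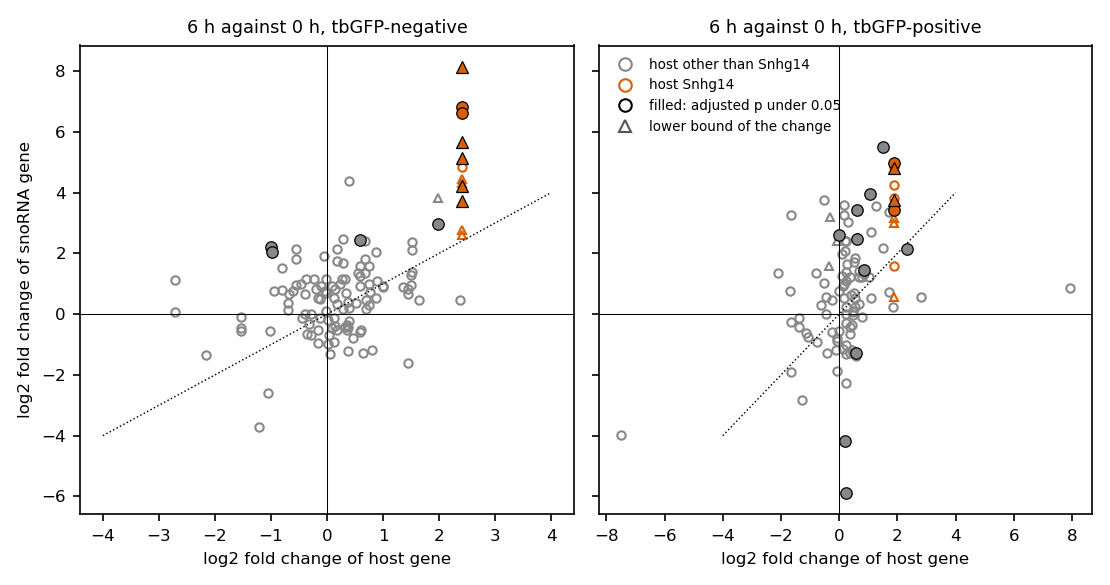
Log2 fold change of each snoRNA member (y axis) against that of its host gene (x axis), for 124 pairs. Both panels show 6 h against 0 h, in tbGFP-negative (left) and tbGFP-positive cells (right). On the right 17 pairs are left out, among them members with counts at 0 h and none at 6 h, such as Gm23136. Large falls to 0 counts are therefore not shown. Orange marks the 12 members in Snhg14, filled points passed the test, triangles are lower bounds of the change for members without counts in a group, and the dotted line marks equal change; the Snhg14 members stand in a column at the host's 2.41 on the left.

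The member with the most reads fell in tbGFP-positive cells at 6 h. Gm26448 had 262 and 161 CPM there before sorbitol, 95.1 and 80.6 after 6 h, then 259 and 135 after 24 h, and in negative cells 216 and 205, 283 and 322, and 146 and 152. Both positive 6 h libraries lay below all other 10. Its log2 fold change was -1.27 ± 0.28 (adjusted p = 0.0177) in positive cells, lost without replicate 1 at 0 h (adjusted p = 0.096), and -1.79 ± 0.28 (adjusted p = 0.000401) against negative cells at 6 h, a call that held in all alternatives run. The call of Gm26448 against 0 h was also lost in the fit of only the libraries compared (adjusted p = 0.312). The host Rpsa stood at 0.59 ± 0.24 (adjusted p = 0.149) and -0.51 ± 0.24 (adjusted p = 0.169). Snord17 in Snx5 (85.4 and 84.1 against 224 and 258 CPM in negative cells at 6 h) and Snora78 in Snhg9 (23.8 and 37.4 against 119 and 110 CPM) were also lower, by 1.51 ± 0.37 (adjusted p = 0.0162) and 1.89 ± 0.48 (adjusted p = 0.0192) on the log2 scale. Both calls were lost without replicate 1 or 2 of the tbGFP-negative 6 h group (adjusted p = 0.0538 and 0.0903 for Snord17, 0.0941 and 0.0748 for Snora78) or of the tbGFP-positive 6 h group (0.157 and 0.149, 0.202 and 0.104).

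Most of the other members lower in positive cells at 6 h had few counts or none there. Gm23136 in the ribosomal protein gene Rpl4 had 0 counts in both positive 6 h libraries, against 26 and 28 in negative cells at 6 h and 37 and 12 in positive cells at 0 h. It was at least 17.3-fold lower than in negative cells (adjusted p = 0.00159) and at least 18.3-fold lower than at 0 h (adjusted p = 0.00692), with the host at log2 0.17 ± 0.22 and 0.24 ± 0.22. Both calls of Gm23136 were lost in the fit of only the libraries compared (adjusted p = 0.162 and 0.424). Snord87 in Snhg6 (0 and 0 against 16 and 12 counts in negative cells), Snord37 in Eef2 (0 and 0 against 13 and 12) and Snord11 in Nop58 (0 and 0 against 9 and 18) were at least 8.98-fold, 8.02-fold and 8.66-fold lower (adjusted p = 0.0239, 0.0315 and 0.0229). Without replicate 1 or 2 of the tbGFP-negative 6 h group the calls of Snord87 (0.0778 and 0.0691) and Snord37 (0.0851 and 0.0929) were lost, and without replicate 2 that of Snord11 (0.104). Snord37 also lost its call without any 24 h library or replicate 2 of the tbGFP-positive 6 h group, with adjusted p of 0.0517 to 0.0614. The low number of detected genes in these 2 libraries moved with this result, and its part in it was not tested. Only 1 member was called higher in positive cells at 6 h among those with a host: Snord59a in Atp5b, with 49 and 43 counts against 6 and 5 (log2 3.31 ± 0.98, adjusted p = 0.0389). Its host was higher too (1.29 ± 0.34, adjusted p = 0.0239). The Snord59a call was lost without any single library but either tbGFP-positive 0 h library or replicate 2 of the tbGFP-positive 6 h group, with adjusted p of 0.0562 to 0.207.

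A set of 3 members stood out in tbGFP-positive cells at every time, and none of them has a same-strand host. Gm23949 had 178 and 307 counts before sorbitol in positive cells, 212 and 243 after 6 h, then 288 and 378 after 24 h, against 1 and 1, 0 and 0, and 11 and 5 in negative cells. The fractions did not overlap at any time. The ratio at 0 h was 300-fold with a 95% counting interval from 82.7 to 2490 (adjusted p = 1.63e-06), at 6 h it was at least 158-fold (adjusted p = 1.08e-06), and at 24 h the log2 difference was 5.86 ± 0.56 (adjusted p = 3.47e-06). Gm26040 (chr3:27868113-27868273, plus strand) had 77 and 66, 67 and 86, and 82 and 104 counts in positive cells against 0 and 0, 0 and 0, and 12 and 2. It was at least 59.0-fold higher at 0 h (adjusted p = 0.00019) and at least 53.0-fold higher at 6 h (adjusted p = 0.000172), and 4.24 ± 0.75 higher on the log2 scale at 24 h (adjusted p = 0.00235). Gm22723 (chr6:60071058-60071186, minus strand) had 94 and 68, 98 and 61, and 123 and 152 counts against 0 and 0, 2 and 0, and 2 and 2. It was at least 66.9-fold higher at 0 h (adjusted p = 0.000106), 82.6-fold at 6 h with an interval from 22.5 to 688 (adjusted p = 0.000231), and 6.47 ± 0.86 higher on the log2 scale at 24 h (adjusted p = 0.000118). The few counts of these genes in negative cells at 24 h came with the higher sum of the 2-cell markers there, whose part was not tested. Of these 9 calls, 8 held in all alternatives run, and that of Gm22723 at 6 h in all but the fit of only the libraries compared (adjusted p = 0.0733). All 3 passed the filter on low counts only through tbGFP-positive libraries, where they were high. Their calls describe these genes and support nothing further.

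All 3 lie inside a gene on the opposite strand that was itself high in tbGFP-positive cells or had few counts. Gm23949 lies in Gm16004, a long noncoding gene with 245 and 221 counts in positive cells at 0 h and 0 in negative cells (adjusted p = 5.34e-06). Gm26040 lies in Tmem212, with 77 and 80 against 0 (adjusted p = 0.000131). Gm5570, around Gm22723, had only 7 and 1 counts against 0, fewer than the snoRNA gene inside it. Another member, Gm26184 in Dlgap2, had 21 and 14 counts in positive and none in negative cells at 6 h, at least 12.1-fold higher (adjusted p = 0.0467). That call was lost without any library of the 0 h groups, without either negative 6 h library, without replicate 2 of the negative and either replicate of the positive 24 h group, with adjusted p up to 0.214. Gm26184 too passed the filter on low counts only through tbGFP-positive libraries, so its call supports nothing further. None of the 4 holds the C and D box letters or ACA at the searched places. Reads of these genes and of the opposite-strand transcripts cannot be told apart here, since the strand setting of the counting is not given.

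**Figure D5:**
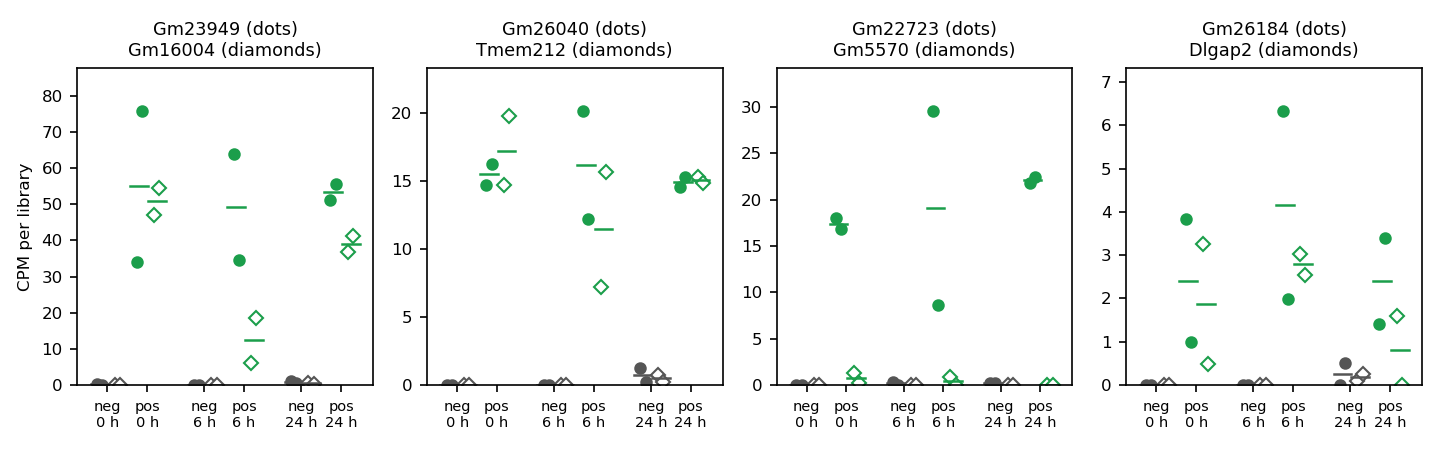
CPM per library for 4 snoRNA genes (dots) and the opposite-strand gene around each (open diamonds), with bars at the mean of 2 libraries, by sorted fraction (grey negative, green positive) and hours of sorbitol; the y axes differ. Gm23949 lies between 34.1 and 75.9 CPM in positive libraries and at most 1.14 CPM in negative ones, and Gm5570 stays at or below 1.34 CPM throughout.

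In the imprinted cluster on chromosome 12, 0 of 9 members were called at 6 h in either fraction, and the noncoding gene Rian rose. Of all tested genes, 3.22% were called higher and 1.21% lower in negative cells, and 2.14% and 3.76% in positive cells. At such shares 0 calls among 9 members carry little information. Of the 9 members, 1 (Gm24564) lies in an intron of Rian, a noncoding snoRNA host expressed from the maternal allele, and 8 lie in no annotated gene span. Rian had 108 and 129 CPM before sorbitol and 698 and 538 after 6 h in negative cells, a rise of 2.38 ± 0.20 (log2, adjusted p = 8.85e-06), and 47.3 and 59.8 and then 339 and 418 in positive cells (2.82 ± 0.21, adjusted p = 5.5e-06). The median log2 difference of the 9 members was -1.19 in negative cells, where 5 lay below and 1 above their 0 h levels without overlap, against 24.6% and 31.9% of all tested genes. It was 0.56 in positive cells, where 1 lay below and 2 above, against 22.9% and 15.3%. The difference between members and Rian was not tested. Gm24564 stood at 0.47 ± 0.87 (adjusted p = 0.877).

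Calls among genes for the proteins of snoRNA particles are read beside the shares of all tested genes. Between fractions these were 6.66% higher and 0.449% lower at 0 h, and 6.92% and 5.22% at 6 h. In negative cells 3.22% were higher at 6 h and 1.29% lower at 24 h. No list was tested against these shares, and the calls of listed genes, here and in the next paragraph, were not followed through the alternatives. Of the 4 box C/D core proteins, 1 was called in 1 comparison: Fbl, the methyltransferase fibrillarin, was lower in positive than in negative cells at 6 h by 0.70 ± 0.19 on the log2 scale (adjusted p = 0.0254). Of 3 tested box H/ACA core proteins 0 were called at 6 h in either fraction, and Nop10 was lower at 24 h in negative cells by 0.59 ± 0.15 (adjusted p = 0.0349). Of 9 assembly factors, Rpap3 was higher in positive cells at 0 h (0.61 ± 0.17, adjusted p = 0.0397) and Shq1 lower in them at 6 h (-3.10 ± 0.88, adjusted p = 0.0332). Of 8 tested genes for trimming and decay, Dbr1, the enzyme that opens intron lariats, was higher in positive cells. It had 31.4 and 28.9 CPM in negative and 77.2 and 107 CPM in positive cells at 0 h, and 47.0 and 50.7 against 142 and 131 at 6 h. The log2 differences were 1.62 ± 0.23 (adjusted p = 0.000164) and 1.48 ± 0.23 (adjusted p = 0.000333), and the fractions did not overlap. Dis3, a catalytic subunit of the RNA exosome, rose at 6 h in negative cells by 1.15 ± 0.31 (adjusted p = 0.0458). Of 5 tested cap and Cajal body factors, Coil was higher in positive cells at 6 h (1.60 ± 0.48, adjusted p = 0.043), and Smn1 had 0 CPM there in both libraries against 2.35 and 3.95 CPM in negative cells (adjusted p = 0.0305).

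Of 3 genes for ribosomal RNA processing, Ncl and Npm1 rose at 6 h in both fractions. Of all tested genes, 3.22% were called higher at 6 h in negative and 2.14% in positive cells. Between fractions at 6 h, 1 of the 3 was called lower in positive cells, against 5.22% of all tested genes. Npm1, which encodes nucleophosmin, had 502 and 554 CPM before sorbitol and 1060 and 1010 after 6 h in negative cells (log2 0.97 ± 0.21, adjusted p = 0.0134), and 492 and 781 and then 901 and 1310 in positive cells (0.80 ± 0.21, adjusted p = 0.0365). Ncl, which encodes nucleolin, rose by 1.49 ± 0.20 (adjusted p = 0.000569) in negative and 1.26 ± 0.20 (adjusted p = 0.00313) in positive cells. Snord82, the member in an intron of Ncl, was called in no comparison.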

How the data were processed

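Total RNA libraries of 12 sorted samples, 6 groups of 2, were measured by RNA-seq. The deposited files hold raw read counts per Ensembl transcript, made by the authors with HISAT2 and featureCounts on mm10, with FastQC and DESeq2 also listed, per the submitters' processing notes. Versions, strand setting and the treatment of overlapping or multiply matching reads are not given in the sources used here. Counts of 141536 of 142446 transcripts were matched to GENCODE M21 and summed to 55266 genes, and 910 transcripts did not match. The tests had been planned for gene counts, and the sums took their place. The 19384 genes that reached 10 counts in 2 or more libraries were fitted with 6 group means by edgeR 4.0.16 (R 4.3.3, TMM scaling, robust quasi-likelihood test, Benjamini-Hochberg adjustment over all tested genes, threshold 0.05). The common dispersion was 0.208, a biological coefficient of variation of 45.6%. The code was tested on simulated data. Totals of 2306870 to 7900178 counts limit precision for members with few counts.

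A fold against a group without counts is a lower bound at 3 counts over the group, and one with 1 to 3 counts has a 95% counting interval. Both cover counting error only. Members and lists were chosen with earlier results of these data known. Members named were taken, in each comparison, from the 8 with the largest called increase and the 8 with the largest called decrease, the 10 with the highest mean CPM, a panel of processing snoRNAs and the members of selected hosts, with exceptions stated, and not all of them are named. Alternatives were DESeq2 1.42.0, other scalings, no low-count filter, only the libraries compared, a replicate block, and leaving out each library. Leaving out both tbGFP-positive 6 h libraries, and other sums of the Snord116-type copies, were added after seeing the data. 1 item is not reported here.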

Additional observations from a re-analysis of the deposited data

Results flagged for a closer look

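Snora17 stood out because its change from 0 h to 6 h differed between the sorted fractions by a test of that difference. The gap between tbGFP-positive and tbGFP-negative cells moved by -1.77 ± 0.29 on the log2 scale (SE, edgeR's quasi-likelihood test, adjusted p = 0.0226), from a mean of 66.4 ± 4.74 against 41.0 ± 0.129 CPM (SD, n = 2) at 0 h to 74.7 ± 10.5 against 157 ± 2.95 CPM at 6 h. The adjusted p ranged from 2.84e-05 to 0.151 over the alternatives and passed the threshold in 10 of 19.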

How the results depend on the processing

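Of 64 called results of named members, 14 held in every alternative run and 0 changed sign. The 14 include 3 between fractions at 0 h and 3 at 24 h, all of Gm23949, Gm26040 and Gm22723, and those of Gm23949 and Gm26040 at 6 h. These genes passed the filter on low counts only through tbGFP-positive libraries, so their calls support nothing further. The others were Gm26270 against 0 h at both times in both fractions, Snora17 at 6 h in negative cells, and Gm26448 between fractions at 6 h. The losses of single calls named above are not complete for the alternatives that keep all libraries of a comparison. These are the fit of only the libraries compared, the replicate block, the other scalings and the fit without the low-count filter. The log2 change of Snora17 at 6 h in tbGFP-positive cells, not called, reversed to -0.06 without replicate 2 of that group and was 0.21 without replicate 1. Called members ranged, with each library left out in turn, from 3 to 12 between fractions at 0 h, 6 to 37 at 6 h and 3 to 4 at 24 h. For 6 h against 0 h they ranged from 2 to 30 in tbGFP-negative and 6 to 41 in tbGFP-positive cells, and for 24 h against 0 h from 1 to 9 in each. For the change of the gap at 6 h they ranged from 0 to 17. Without both tbGFP-positive 6 h libraries the counts were 12 between fractions at 0 h, 29 for 6 h and 11 for 24 h in negative cells, and 9 for 24 h in positive cells. With only the libraries compared, counts were 3, 5 and 5 between fractions at 0, 6 and 24 h, 44 and 1 for 6 h in negative and positive cells, 16 and 3 for 24 h, and 0 for the gap at 6 h. DESeq2 called 21 and 37 members for 6 h in negative and positive cells, 6 for 24 h in positive cells and 6 for the gap at 6 h. Without the low-count filter 20 were called for 6 h in negative cells, 5 for 24 h in positive cells, 5 for the gap at 6 h and 1 at 24 h. Library totals alone left 0 for the gap at 6 h. Among these alternatives, the share of all tested genes called is given only for the fit without both tbGFP-positive 6 h libraries. For 6 h in negative cells it was 8.21% higher and 5.55% lower there, against 3.22% and 1.21% in the main fit. The counts of members are therefore not read as a result about snoRNAs. The cause of these differences was not tested.

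A replicate block gave 13 calls between fractions at 6 h, 11 for 6 h and 2 for 24 h in positive cells. Same-numbered libraries did not deviate together (r from -0.04 to 0.03 over 15 pairs of groups), so the numbers were not taken as pairs. Scaling by library totals moved the median of all genes by -0.27 for 6 h in negative cells, -0.41 and -0.42 between fractions at 0 and 24 h, and 0.40 for the gap at 6 h. Upper-quartile factors moved it by -0.35, -0.33 and -0.19 between fractions at 0, 6 and 24 h. Members shifted with it: for 6 h in negative cells their median was 0.31 against -0.22 with library totals. Requiring 10 counts in every library left 28 members. Without the snoRNA gene with the most counts the mean share of counts was 0.13% and 0.105% at 0 h, 0.208% at 6 h in negative cells, and 0.135% and 0.118% at 24 h. With few counts in most members, small changes were not detectable at this depth.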
